A study of Mus musculus with 9 samples.

Results

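The guanylate-binding proteins (GBP) and the immunity-related GTPases (IRG) are families of large GTPases whose genes are switched on by interferons. This account covers 10 named genes of these families, 6 GBP genes (Gbp2, Gbp3, Gbp5, Gbp6, Gbp7 and Gbp9) and 4 IRG genes (Irgm1, Irgm2, Igtp and Iigp1), out of 56289 gene identifiers in the deposited table. They were picked by gene name, with Ensembl mouse identifiers matched to symbols, and earlier results of these data were known at that time. Poly-A RNA was sequenced in 9 mouse libraries, 3 per group. The TNF plus WBG group received Wang Bi granules, a Chinese herbal preparation, together with TNF-α for 24 h. The TNF group received TNF-α, an inflammatory cytokine, for 24 h without the granules. The untreated group received neither, and the labels give no time for it, so time in culture and TNF-α cannot be told apart. All 3 groups are labelled as RAW264.7, a macrophage-like line of the BALB/c strain kept in medium with fetal bovine serum, and the series sets the groups against each other to study how the granules act in rheumatoid arthritis.

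Interferon-γ acts through the receptor chains Ifngr1 and Ifngr2 and the kinases Jak1 and Jak2, which activate STAT factors. STAT dimers bind the gamma-activated site (GAS), while STAT complexes with Irf9, and the factor Irf1, bind the interferon-stimulated response element (ISRE). TNF-α acts mainly through NF-kB and also induces Irf1. In infected cells GBP proteins gather on the vacuoles and membranes of bacteria and parasites, help to break them open and promote inflammasome activation. Among IRG proteins, effectors such as Iigp1 (Irga6) attack the vacuole, while the regulators Irgm1, Irgm2 and Igtp (Irgm3) sit on host membranes and restrain the effectors.

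The sequence upstream of these genes is shown here because it holds letters that match the elements named above. RefSeq promoter windows (GRCm38.p6) were found for 7 of the 10 members, namely Gbp2, Gbp3, Gbp5, Gbp7, Irgm1, Irgm2 and Igtp, and Gbp6, Gbp9 and Iigp1 were not matched. The 120 bases before the start are printed 5′ to 3′ on the gene's own strand, in lower case, and capitals mark matches to a motif on either strand. The GBP windows are Gbp2 at chr3:142620543-142620662 (plus strand), Gbp3 at chr3:142559924-142560043 (plus strand), Gbp7 at chr3:142530216-142530335 (plus strand) and Gbp5 at chr3:142496814-142496933 (plus strand). For Gbp3, which has 2 listed starts, the window of the upstream one is shown, since the other holds no ISRE core in its 250 bases. The IRG windows are Irgm1 at chr11:48871421-48871540 (minus strand), Irgm2 at chr11:58214857-58214976 (plus strand) and Igtp at chr11:58199436-58199555 (plus strand).
Gbp2: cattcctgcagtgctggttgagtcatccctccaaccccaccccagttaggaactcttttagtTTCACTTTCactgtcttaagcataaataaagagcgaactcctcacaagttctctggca
Gbp3: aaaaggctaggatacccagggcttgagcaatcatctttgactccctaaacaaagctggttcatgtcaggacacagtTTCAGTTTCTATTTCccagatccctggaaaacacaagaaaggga
Gbp7: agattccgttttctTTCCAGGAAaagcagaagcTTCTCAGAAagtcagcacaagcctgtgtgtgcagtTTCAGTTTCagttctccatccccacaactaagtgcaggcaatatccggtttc
Gbp5: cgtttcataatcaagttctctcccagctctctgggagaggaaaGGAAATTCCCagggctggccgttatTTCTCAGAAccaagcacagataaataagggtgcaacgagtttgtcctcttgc
Irgm1: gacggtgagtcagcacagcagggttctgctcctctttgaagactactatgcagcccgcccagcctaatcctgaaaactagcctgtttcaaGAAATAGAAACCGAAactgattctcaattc
Irgm2: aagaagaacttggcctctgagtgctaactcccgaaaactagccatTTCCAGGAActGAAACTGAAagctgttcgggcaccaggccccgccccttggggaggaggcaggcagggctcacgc
Igtp: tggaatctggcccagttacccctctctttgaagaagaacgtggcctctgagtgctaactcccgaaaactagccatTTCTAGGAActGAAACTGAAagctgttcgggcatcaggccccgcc

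The core of the ISRE, searched as GAAANNGAA, matched in the 250 bases before the start of all 7 members found, against 8.18% of 27025 genes with a window of that length. In Gbp2, Gbp3 and Gbp7 it reads on the opposite strand and lies within 58 bases of the start. In Irgm1 and in Gbp3 a pair of matches overlap each other by 3 bases, at -30 to -22 and -24 to -16 in Irgm1 and at -44 to -36 and -38 to -30 in Gbp3, counted from the start. The GAS, searched as TTCNNNGAA, matched in 4 of 7 members (Gbp5, Gbp7, Igtp and Irgm2), against 8.13% of genes. In Igtp and Irgm2 it stands just upstream of the ISRE core, at -45 to -37 and at -75 to -67, with 2 bases between the motifs. In the 250 bases before the start these 2 genes share a run of 55 identical bases, the longest run among the member pairs. It begins at -181 in Igtp and at -215 in Irgm2, upstream of both motifs and of the bases printed. The NF-kB consensus matched in Gbp5 alone, at -77 to -68, against 8.23% of genes. A match describes the letters and is not a binding measurement.

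**Figure D1:**
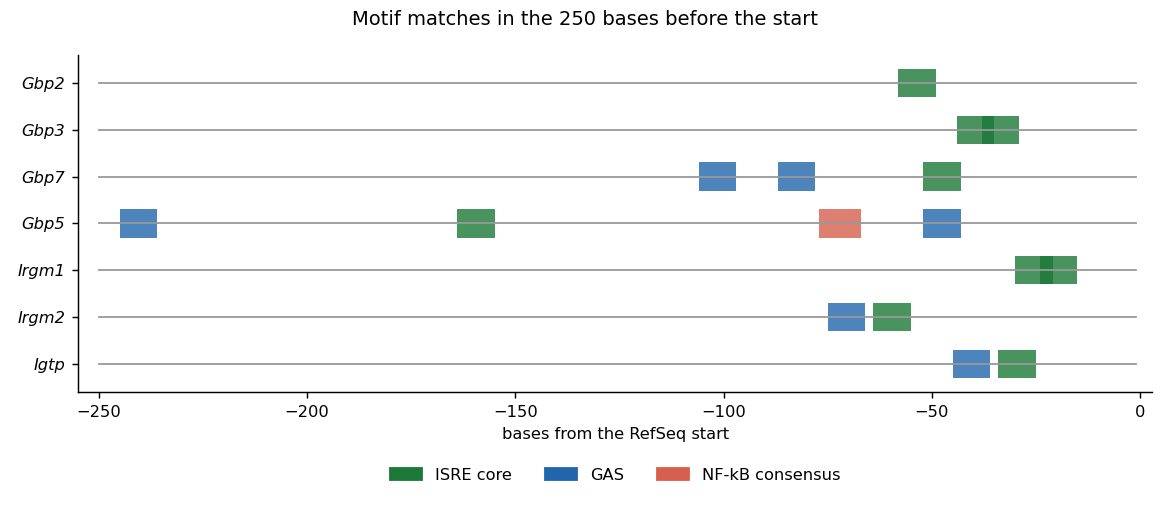
Map of motif matches in the 250 bases before the RefSeq start of 7 member genes, with the distance from the start in bases on the horizontal axis and 1 line per gene. Coloured blocks mark the ISRE core, the GAS and the NF-kB consensus, and every gene carries at least 1 ISRE core block.

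Before the values of the members, the labelled cell type was set against marker genes. Of 12 macrophage markers 3 averaged at least 1 FPKM (fragments per kilobase of gene model, scaled to the library's total fragments, the unit of the deposited table), and Ptprc, Itgam and Adgre1 were listed at 0 in all 9 libraries. Those that averaged at least 1 FPKM were Cd14 (4.3 to 7.61 FPKM over the libraries), Mertk (1.31 to 2.78 FPKM) and Cd68 (0.939 to 1.97 FPKM). The 12 macrophage markers summed to 9.39 to 11.9 FPKM in TNF plus WBG and to 8.42 to 9.72 FPKM in TNF. In untreated libraries their sum was 8.54 to 9.32 FPKM. Of 12 fibroblast markers 10 averaged at least 1 FPKM, with Lum at 0 throughout and Thy1 at no more than 0.0687 FPKM. The 12 summed to 3337 to 3594 FPKM in TNF plus WBG and to 3446 to 3537 FPKM in TNF. In untreated libraries their sum was 3297 to 3612 FPKM. Single markers did move. In TNF against untreated 3 of 10 tested fibroblast markers rose and 3 fell, and 1 of 3 tested macrophage markers fell. Of all 13026 genes tested, 837 rose and 549 fell there. In TNF plus WBG against untreated 2 fibroblast markers fell and 1 macrophage marker rose, where 719 of all genes tested rose and 478 fell. The part of these markers in the members' changes was not tested. No gene of 9 lymphocyte and natural killer cell markers reached a mean of 1 FPKM. Their sums were 0.0355 to 0.0503 FPKM in TNF plus WBG, 0.0203 to 0.118 FPKM in TNF and 0.0729 to 0.202 FPKM in untreated libraries, and Cd3e, Cd3d, Ncr1 and Ms4a1 were at 0 throughout. None of 5 endothelial markers reached it either, and their sums were 0.287 to 0.425 FPKM, 0.175 to 0.293 FPKM and 0.0985 to 0.198 FPKM in TNF plus WBG, TNF and untreated libraries. The profile therefore went against the macrophage label in every group, and the libraries are called here by their treatment. Depth was inferred from steps in the low values as 18.9 to 26.1 M (mega) fragments per library, provided that a step is 1 fragment (20.2 to 22.5% of values lay on a step, where evenly spread values would give 4%, so most did not), and log2 values correlated at 0.987 to 0.989 within groups and 0.979 to 0.989 between them, across genes. The labels do not say whether the 3 libraries of a group come from separate cultures, so the tests measure the spread between these libraries only, which may be technical.

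The first comparison, TNF against untreated, addresses the effect of the cytokine on these genes without the granules. Gbp3, Gbp7 and Gbp2 rose by the largest log2 changes among the members tested (1.15, 1.13 and 0.95), and Gbp9 and Irgm2 by smaller ones (0.39 and 0.38). Of the 10 members 7 passed the filter on low values (at least 1 FPKM in at least 3 of 9 libraries). Of these 7, 5 rose, none fell, and Irgm1 and Igtp did not pass the test, in a fit where 6.43% of the 13026 genes tested were called higher. Genes were called by limma on log2(FPKM + 1), with p-values adjusted by the Benjamini-Hochberg method across the 13026 genes and a threshold of 0.05. The members' median log2 change was 0.39, against 0.00 over all genes tested. Gbp7 and Irgm2 reached the filter only with the help of the treated libraries, so these counts describe the genes tested and not the families. All 3 TNF libraries lay above all 3 untreated ones for 9 of the 10 members (all but Gbp5), where 9.01% of the 31192 genes above 0 did so. In RNA of whole cultures, a change in the number of cells of a kind and a change in RNA per cell cannot be told apart.

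Gbp2 (ENSMUSG00000028270, chromosome 3) encodes a GBP that is anchored to membranes by a lipid tail and coats parasite and bacterial vacuoles. It had 6.88, 7.11 and 7.60 FPKM in the TNF libraries, against 3.31, 3.35 and 3.09 FPKM in the untreated ones. The groups were far apart and each was narrow, with 7.20 ± 0.37 FPKM in TNF and 3.25 ± 0.14 FPKM in untreated libraries (SD, n = 3 each). This was a 2.22-fold rise, with a log2 change of 0.95 ± 0.07 (SE) and an adjusted p of 3.5e-05 by limma. Its exons overlap those of the microRNA gene Mir6381 in the annotation (GENCODE M21), so reads of the pair are not separable here.

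Gbp3 (ENSMUSG00000028268, chromosome 3) lies in the same gene cluster. It had 4.47, 6.21 and 6.13 FPKM in the TNF libraries, against 1.53, 2.56 and 1.84 FPKM in the untreated ones. TNF library 1 was lower than the other 2 but still above every untreated library. The rise was 2.83-fold, with a log2 change of 1.15 ± 0.15 and an adjusted p of 0.00119 by limma.

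Gbp7 (ENSMUSG00000040253, chromosome 3), a GBP linked to assembly of the phagocyte oxidase, had 3.06, 2.40 and 2.26 FPKM in the TNF libraries, against 0.44, 0.88 and 0.58 FPKM in the untreated ones. No untreated library reached 1 FPKM and every TNF library passed 2 FPKM. The log2 change was 1.13 ± 0.13 with an adjusted p of 0.000702 by limma, and no ratio of means is given because the untreated mean of 0.634 FPKM was under 1. Gbp7 overlaps exons of the predicted gene Gm43802.

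Gbp9 (ENSMUSG00000029298), on chromosome 5, had 3.13, 3.26 and 3.49 FPKM in the TNF libraries, against 2.19, 2.35 and 2.31 FPKM in the untreated ones. The groups did not overlap, and the rise was 1.44-fold, with a log2 change of 0.39 ± 0.08 and an adjusted p of 0.015 by limma. The call was lost without untreated library 1 (adjusted p = 0.0545) and without TNF library 3 (0.06), among adjusted p-values from 0.00811 to 0.06 over 18 alternatives. Its exons overlap those of Gbp4 and Gbp8, and the GBP genes are close paralogs, so the authors' counting could have split reads among them.

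Gbp6 (ENSMUSG00000104713), also on chromosome 5, stayed under the filter. It had 0.67, 1.21 and 1.36 FPKM in the TNF libraries, against 0.13, 0.12 and 0.16 FPKM in the untreated ones. Every TNF library was well above every untreated one, and TNF library 1 was the lowest of its group, as it was for Gbp3. In a fit without the filter its log2 change was 0.85 with an adjusted p of 0.0094 by limma. Gbp6 overlaps the predicted gene Gm43302. Gbp5 (ENSMUSG00000105504), known for its part in inflammasome activation, was near 0 throughout, with 0.03, 0.06 and 0.00 FPKM in the TNF libraries, against 0.00, 0.01 and 0.00 FPKM in the untreated ones. Without the filter its log2 change was 0.03 with an adjusted p of 0.611 by limma, and its promoter is the one that held all 3 motifs, with the ISRE core at -164 to -156, outside the bases printed.

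Irgm1 (ENSMUSG00000046879, chromosome 11), a regulator needed for resistance to mycobacteria in mice, was the most abundant member in every group. It had 22.5, 23.6 and 22.9 FPKM in the TNF libraries, against 19.0, 21.2 and 19.1 FPKM in the untreated ones. The TNF libraries were all above the untreated ones by a small margin. The ratio was 1.16, with a log2 change of 0.21 ± 0.06, an interval of 0.07 to 0.34 and an adjusted p of 0.0586 by limma. It passed the threshold when untreated library 2 (0.0359) or TNF plus WBG library 2 (0.0435) was left out, with adjusted p-values from 0.0359 to 0.168 over 19 alternatives.

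Irgm2 (ENSMUSG00000069874) and Igtp (ENSMUSG00000078853), both regulators, lie beside each other on chromosome 11 with overlapping exons in the annotation. Irgm2 had 1.39, 1.76 and 1.45 FPKM in the TNF libraries, against 0.84, 1.16 and 0.85 FPKM in the untreated ones. The groups were apart by less than their own widths, and the log2 change was 0.38 ± 0.10 with an adjusted p of 0.0422 by limma. This call held in 6 of 18 alternatives and in 1 of 9 omissions of a library, the one without untreated library 2, with adjusted p-values from 0.0239 to 0.136. Igtp had 2.33, 2.89 and 2.46 FPKM in the TNF libraries, against 2.04, 1.60 and 1.71 FPKM in the untreated ones. Its groups did not overlap, with a ratio of 1.44, a log2 change of 0.35 ± 0.10 and an adjusted p of 0.0538 by limma. It passed at 0.0387 in limma without a trend, among values from 0.0387 to 0.165 over 18 alternatives. Iigp1 (ENSMUSG00000054072), the effector, had 0.05, 0.20 and 0.13 FPKM in the TNF libraries, against 0.02, 0.01 and 0.02 FPKM in the untreated ones. It was low in all groups and stayed under the filter, and without the filter its log2 change was 0.14 with an adjusted p of 0.181 by limma.

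**Figure D2:**
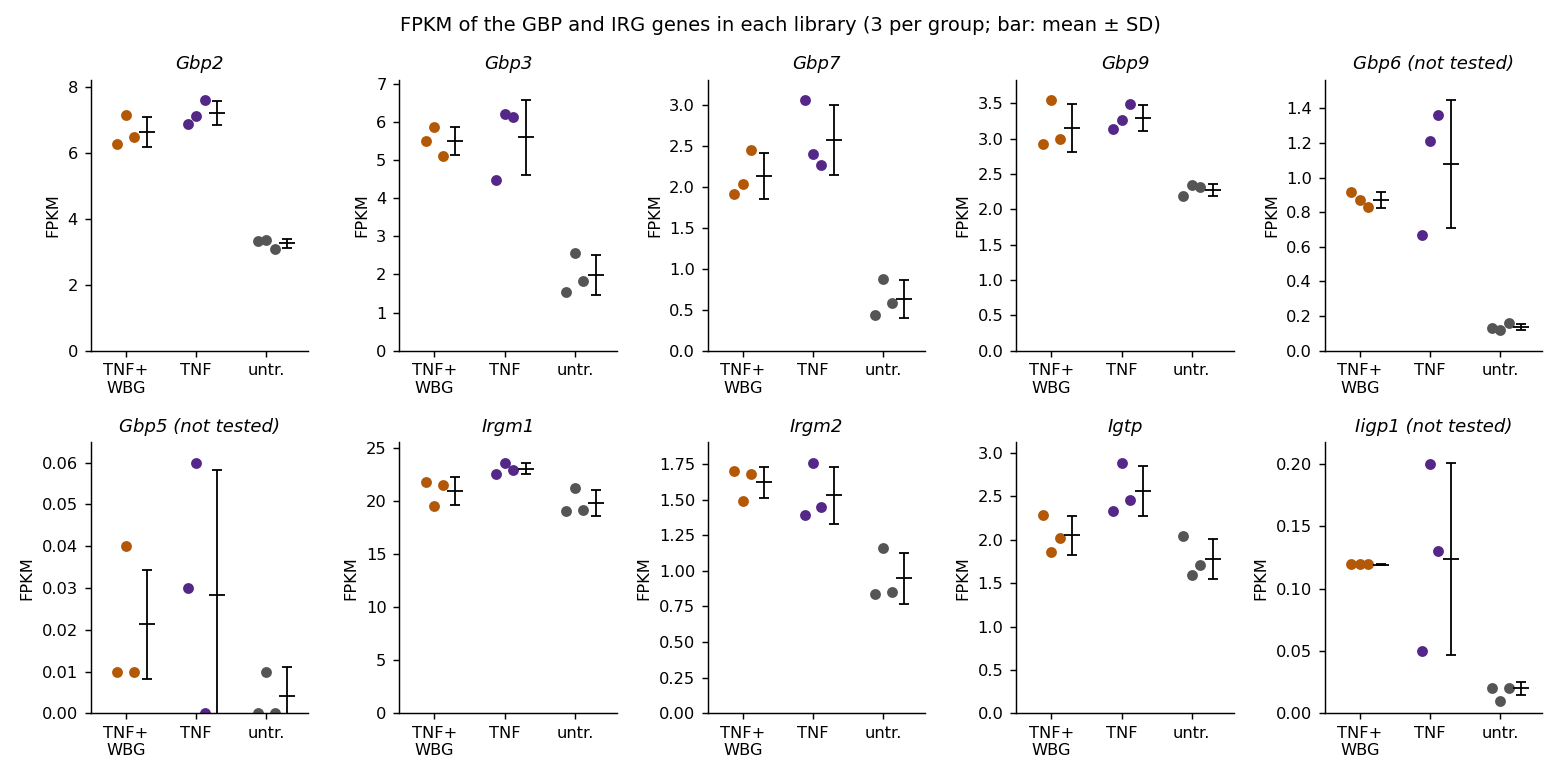
FPKM of the 10 member genes, 1 panel each, with TNF plus WBG, TNF and untreated libraries from left to right. Points are libraries (3 per group), the bar beside them is the mean ± SD, and each vertical axis starts at 0 with its own scale, which cuts the lower bars of Gbp5. Among the members tested, Gbp2, Gbp3 and Gbp7 have the largest log2 changes between treated and untreated libraries, and Gbp2 averages 6.63 FPKM in TNF plus WBG, 7.20 FPKM in TNF and 3.25 FPKM in untreated libraries.

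The comparison of TNF plus WBG with TNF addresses the effect of the granules on top of the cytokine. None of the 7 members tested was called, in a fit that called 0.0998% of genes in either direction, and none had an unadjusted p under 0.05 (the lowest was 0.0511). Their log2 changes ran from -0.22 to 0.05 with a median of -0.10, against -0.003 over all genes tested. Of the 7, 6 were negative, where 6370 of the 13026 genes tested were positive. The members were measured in the same libraries, so their signs are not separate observations. The 95% intervals together spanned -0.49 to 0.32 on the log2 scale. Each gene's own interval holds the changes compatible with its values at 3 libraries per group. The missed threshold does not show that levels were equal.

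The members nearest to a difference were the regulators Irgm1 and Igtp. Irgm1 had 21.8, 19.5 and 21.5 FPKM in TNF plus WBG, against 22.5, 23.6 and 22.9 FPKM in TNF. Igtp had 2.29, 1.86 and 2.02 FPKM in TNF plus WBG, against 2.33, 2.89 and 2.46 FPKM in TNF. For both genes all 3 TNF plus WBG libraries lay below all 3 TNF libraries, which makes 2 of 10 members where 4.89% of genes above 0 did so. The log2 change was -0.13 ± 0.06 for Irgm1 (adjusted p = 0.554 by limma) and -0.22 ± 0.10 for Igtp (0.562).

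The other members overlapped between the groups. Gbp2 had 6.26, 7.15 and 6.48 FPKM in TNF plus WBG, against 6.88, 7.11 and 7.60 FPKM in TNF, with a log2 change of -0.10 (interval -0.26 to 0.05). Gbp3 had 5.51, 5.86 and 5.11 FPKM in TNF plus WBG, against 4.47, 6.21 and 6.13 FPKM in TNF, with a change of -0.01 (-0.35 to 0.32). Gbp7 had 1.91, 2.03 and 2.45 FPKM in TNF plus WBG, against 3.06, 2.40 and 2.26 FPKM in TNF, with a change of -0.19 (-0.49 to 0.11). In these 3 GBP genes the TNF plus WBG libraries overlapped the TNF range and lay above the untreated libraries. Gbp9 had 2.92, 3.55 and 2.99 FPKM in TNF plus WBG, against 3.13, 3.26 and 3.49 FPKM in TNF, with a change of -0.05 (-0.23 to 0.13). Irgm2 had 1.70, 1.49 and 1.68 FPKM in TNF plus WBG, against 1.39, 1.76 and 1.45 FPKM in TNF, with a change of 0.05 (-0.17 to 0.28). Among the members under the filter, Gbp6 had 0.92, 0.87 and 0.83 FPKM in TNF plus WBG, inside the TNF range of 0.67 to 1.36 FPKM. Iigp1 had 0.12 FPKM in each TNF plus WBG library, and Gbp5 had 0.01, 0.04 and 0.01 FPKM, both also inside the TNF range.

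**Figure D3:**
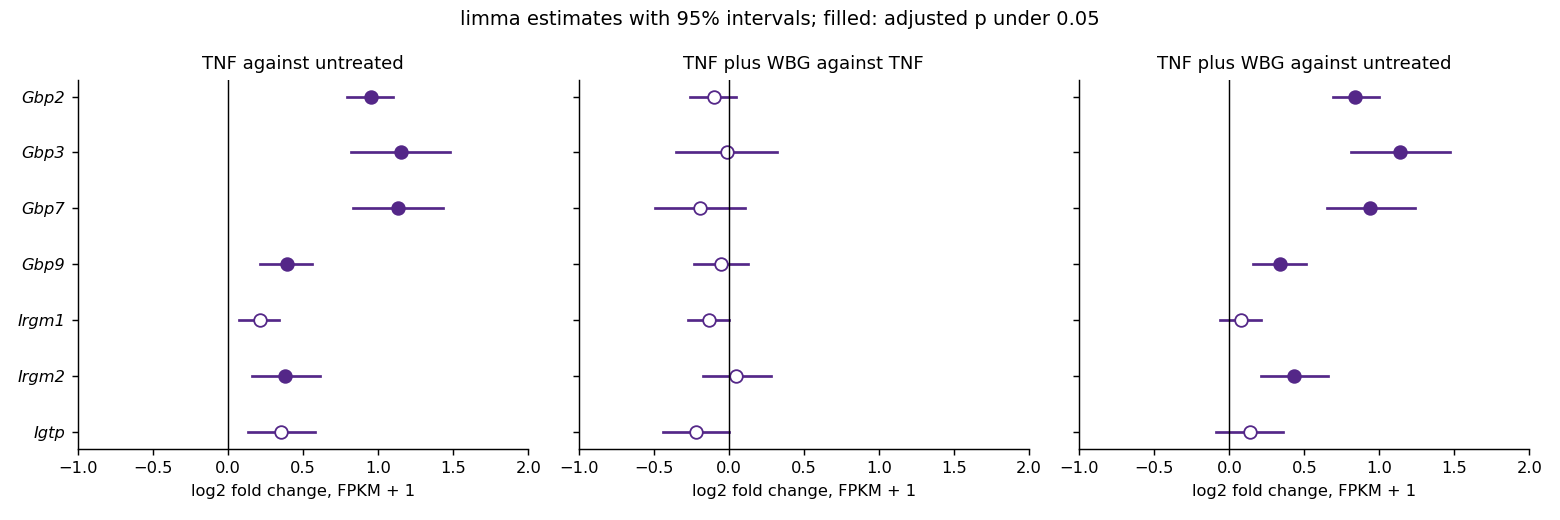
Log2 fold change of FPKM + 1 for the 7 members tested, with TNF set against untreated on the left, TNF plus WBG set against TNF in the middle and TNF plus WBG set against untreated on the right. Points are limma estimates, lines are 95% intervals, and filled points have an adjusted p under 0.05. The 5 filled points of the left panel stand at 0.38 to 1.15, and none is filled in the middle panel.

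The comparison of TNF plus WBG with untreated libraries addresses the combined treatment. It shares the untreated libraries with the first comparison and the TNF plus WBG libraries with the second, so it is not a separate test of either. Of the 7 members tested 5 rose (Gbp2, Gbp3, Gbp7, Gbp9 and Irgm2), in a fit that called 5.52% of genes higher, with a median log2 change of 0.43 over the 7, against -0.003 over all genes tested. All 3 TNF plus WBG libraries were above all 3 untreated ones for 8 of 10 members (all but Irgm1 and Igtp), where 8.62% of genes above 0 were. Gbp5 is counted there on a margin of almost nothing, with a lowest TNF plus WBG value of 0.0129 FPKM, against a highest untreated value of 0.0123 FPKM.

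Gbp2 was 2.04-fold higher in TNF plus WBG than in untreated libraries, with a log2 change of 0.84 ± 0.07 and an adjusted p of 8.51e-05 by limma. Gbp3 was 2.77-fold higher (1.14 ± 0.15, 0.0014), and Gbp7 had a log2 change of 0.94 ± 0.13 (0.00215). These 3 were called in every alternative in which they could be tested. Gbp9 rose 1.38-fold with a log2 change of 0.34 ± 0.08 (adjusted p = 0.0301 by limma), and Irgm2 had a change of 0.43 ± 0.10 (0.0263). Both calls depended on single libraries: Gbp9 kept its call in 3 of 9 omissions (without TNF library 1, TNF library 3 or TNF plus WBG library 1; adjusted p 0.044 to 0.0952). Irgm2 kept it in 4 of 9 (without untreated library 2 or any TNF library; adjusted p 0.0214 to 0.0928). Irgm1 changed by 0.08 with an interval of -0.06 to 0.21 (adjusted p = 0.514), and Igtp by 0.14 with an interval of -0.09 to 0.36 (0.476). For the regulators Irgm1 and Igtp the TNF plus WBG libraries overlapped the untreated ones, which the TNF libraries did not. Neither gene was called in any of the comparisons. The pattern was not shared by the regulator Irgm2, whose TNF plus WBG libraries all lay above the untreated ones.

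**Figure D4:**
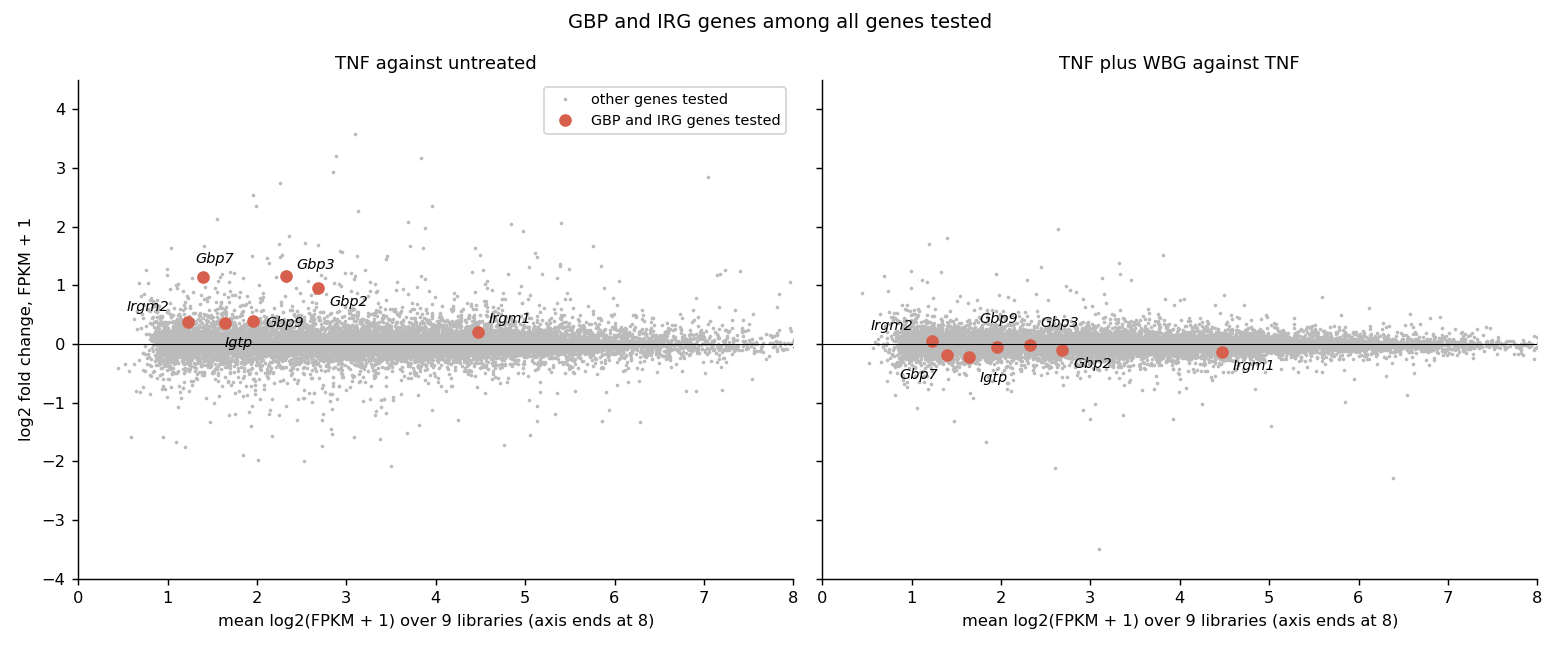
Log2 fold change of FPKM + 1 against the mean log2(FPKM + 1) over 9 libraries for the genes tested (grey; those beyond 8 on the horizontal axis are not drawn) and the 7 members tested (red), for TNF against untreated (left) and TNF plus WBG against TNF (right). Gbp2, Gbp3 and Gbp7 stand at 0.95, 1.15 and 1.13 above the bulk of genes in the left panel, and the members lie within the bulk in the right panel.

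The order of the members by level was the same in both treated groups and changed in its middle against the untreated group. In TNF plus WBG the means were 20.9 FPKM for Irgm1, 6.63 FPKM for Gbp2, 5.49 FPKM for Gbp3, 3.15 FPKM for Gbp9, 2.13 FPKM for Gbp7, 2.05 FPKM for Igtp and 1.62 FPKM for Irgm2. The TNF group had the same order, with 23.0, 7.20, 5.60, 3.29, 2.57, 2.56 and 1.53 FPKM for these genes. Of these neighbours, Gbp7 and Igtp overlapped in both groups and the others were apart. In untreated libraries Gbp9 (2.28 ± 0.085 FPKM) stood before Gbp3 (1.98 ± 0.53 FPKM), with overlapping ranges, and Igtp (1.78 ± 0.23 FPKM) overlapped Gbp3. Gbp7 (0.634 ± 0.23 FPKM) came after Irgm2 (0.947 ± 0.18 FPKM) there, also with overlapping ranges. Gbp6, Iigp1 and Gbp5 were the 3 lowest in every group, and the last pair overlapped in TNF.

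The make-up of the members' summed FPKM moved with the GBP genes. The 10 genes summed to 43.4, 42.4 and 43.2 FPKM in TNF plus WBG, to 44.5, 48.7 and 47.8 FPKM in TNF and to 29.5, 33.3 and 29.7 FPKM in untreated libraries. Each TNF library had a larger sum than any library of the other groups. The 6 GBP genes made up 40.4, 46.0 and 41.4% of this sum in TNF plus WBG, 40.9, 41.6 and 43.6% in TNF and 25.7, 27.9 and 26.9% in untreated libraries. Irgm1 alone made up 50.1, 45.9 and 49.8% in TNF plus WBG, 50.6, 48.4 and 48.0% in TNF and 64.5, 63.8 and 64.5% in untreated libraries. These shares describe the levels and were not tested.

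Among relatives of the members, none of 5 other GBP genes passed the filter, and Gbp8, the highest of them by its mean over all 9 libraries, had 0.28, 0.20 and 0.61 FPKM in TNF plus WBG, 0.15, 0.41 and 0.45 FPKM in TNF and 0.27, 0.41 and 0.12 FPKM in untreated libraries. Its groups overlapped throughout. Gbp4 had 0.27, 0.26 and 0.49 FPKM in TNF plus WBG, 0.20, 0.71 and 0.39 FPKM in TNF and 0.13, 0.13 and 0.16 FPKM in untreated libraries. All 3 TNF libraries lay above all 3 untreated ones for Gbp4, Gbp10 and Gbp2b, at levels under the filter, and overlapped them for Gbp8 and Gbp11. Of the 31192 genes above 0, 9.01% lay above in this way. In a fit without the filter Gbp4, Gbp10 and Gbp2b were not called (adjusted p = 0.305, 0.351 and 0.365 by limma). These GBP genes other than Gbp8 were chosen after their values were seen. Of 6 tested genes among other IRG and interferon-inducible large GTPases, 3 rose in TNF against untreated, where 6.43% of all genes were called higher. None was called in TNF plus WBG against TNF, where 0.0998% of all genes were called in either direction. Tgtp1, 1 of the 3, stayed under 1 FPKM in every untreated library and so passed the filter only through treated ones. The list's median log2 change was 0.43 in the first of these comparisons. Tgtp2 (Irgb6), an effector IRG, had 2.39, 2.48 and 2.91 FPKM in TNF, against 1.65, 1.23 and 1.17 FPKM in untreated libraries. Its log2 change was 0.61 with an adjusted p of 0.00578 by limma, and the groups did not overlap. Tgtp1, a near-identical copy with which it may share reads, had 1.66, 1.24 and 1.57 FPKM in TNF, against 0.73, 0.66 and 0.50 FPKM in untreated libraries (log2 change 0.61, adjusted p = 0.0107 by limma). Ifi47 (Irgd), chosen after its values were seen, was uneven within the TNF group. It had 21.7, 24.2 and 20.0 FPKM in TNF plus WBG, 10.9, 14.6 and 27.3 FPKM in TNF and 18.7, 18.9 and 17.2 FPKM in untreated libraries. TNF libraries 1 and 2 lay below and TNF library 3 above all others, and the log2 change against untreated was -0.15 ± 0.26 (adjusted p = 0.786 by limma). It was 0.12 without TNF library 1 and -0.50 without TNF library 3, where it passed at 0.0492, among adjusted p-values from 0.0492 to 0.927 over 19 alternatives. Its exons overlap those of Gm12188 and Olfr56.

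Upstream of the members, the ligand genes stayed at or near 0, while the receptor genes and most of the factor genes passed the filter. Treated libraries were taken at 24 h only, so ligand RNA at earlier times was not measured. None of 10 interferon ligand genes (of types I, II and III) passed the filter, 6 were at 0 in all 9 libraries, and the highest value of any was 0.07 FPKM, for Ifne. Of 9 interferon receptor and Janus kinase genes tested, 4 rose in TNF against untreated and none fell. The list median was 0.16 on the log2 scale, against 0.00 over all genes tested, of which 6.43% were called higher. Ifngr2, the signalling chain of the interferon-γ receptor, had 25.9, 28.0 and 26.5 FPKM in TNF plus WBG, 27.7, 27.5 and 26.9 FPKM in TNF and 12.3, 10.5 and 10.6 FPKM in untreated libraries. It was 2.46-fold higher in TNF than in untreated libraries, with a log2 change of 1.23 and an adjusted p of 4.28e-06 by limma. Ifngr1, the ligand-binding chain, had 46.1, 53.7 and 44.1 FPKM in TNF plus WBG, 43.3, 54.0 and 45.8 FPKM in TNF and 34.9, 26.0 and 33.4 FPKM in untreated libraries. Both treated groups lay above the untreated one, and in TNF it rose 1.52-fold (log2 0.59, adjusted p = 0.0181 by limma), a call lost without TNF library 2 (0.061) and without the filter (0.0578), among adjusted p-values from 0.0176 to 0.061 over 19 alternatives. Jak2 and Il10rb, chosen after their values were seen, had log2 changes of 0.30 (adjusted p = 0.0278 by limma) and 0.18 (0.0441), with calls kept in 4 of 9 omissions of a library for Jak2 (without TNF library 1 or any TNF plus WBG library) and in none for Il10rb.

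Of 14 listed STAT, IRF and NF-kB factors 11 were tested, and in TNF against untreated 6 rose and none fell. Their median log2 change was 0.28, against 0.00 over all genes tested, of which 6.43% were called higher. Relb, an NF-kB subunit of the non-canonical pathway, had 19.4, 20.8 and 20.9 FPKM in TNF plus WBG, 20.0, 23.8 and 26.7 FPKM in TNF and 5.51, 5.49 and 4.62 FPKM in untreated libraries. It rose 4.52-fold in TNF (log2 1.98, adjusted p = 5.12e-06 by limma). Nfkb2, the partner of Relb, rose 2.35-fold (log2 1.20, 2.73e-06). Both stayed above the untreated libraries in TNF plus WBG, where Nfkb2 had 42.5, 45.4 and 43.9 FPKM. It had 49.7, 49.8 and 46.4 FPKM in TNF and 19.6, 22.3 and 20.0 FPKM in untreated libraries. Every TNF plus WBG library of Nfkb2 lay below every TNF library, as for 4.89% of genes above 0. Its log2 change of -0.14 there was not called (adjusted p = 0.508 by limma). Exons of Nfkb2 overlap those of Psd and AC114539.1. Irf1, Stat2, Irf9 and Nfkb1 are given as factors that act on ISRE or NF-kB elements, and this choice was made after seeing the values. Irf1 had 28.4, 28.5 and 26.3 FPKM in TNF plus WBG, 33.2, 31.6 and 29.3 FPKM in TNF and 19.3, 19.2 and 19.6 FPKM in untreated libraries. Every TNF plus WBG library lay below every TNF library and above every untreated one, as for Nfkb2. Irf1 rose 1.62-fold in TNF (log2 0.67 ± 0.05, adjusted p = 7.81e-05 by limma), a call kept in all 9 omissions, while its change of -0.17 in TNF plus WBG against TNF was not called (0.469).

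Stat2 had a log2 change of 0.28 in TNF against untreated (adjusted p = 0.029 by limma), kept in 4 of 9 omissions (without TNF library 2 or any TNF plus WBG library), and Nfkb1 one of 0.37 (0.00122), kept in all 9. Irf9 had 4.93, 3.57 and 4.69 FPKM in TNF, against 4.44, 4.14 and 4.35 FPKM in untreated libraries, and its change of 0.01 did not pass (0.959). The 3 genes of this list under the filter, Irf7, Irf8 and Batf2, averaged 0.501, 0.153 and 0.128 FPKM in untreated libraries. No tested gene of the receptor list or of this list was called in TNF plus WBG against TNF, where 0.0998% of all genes tested were called.

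**Figure D5:**
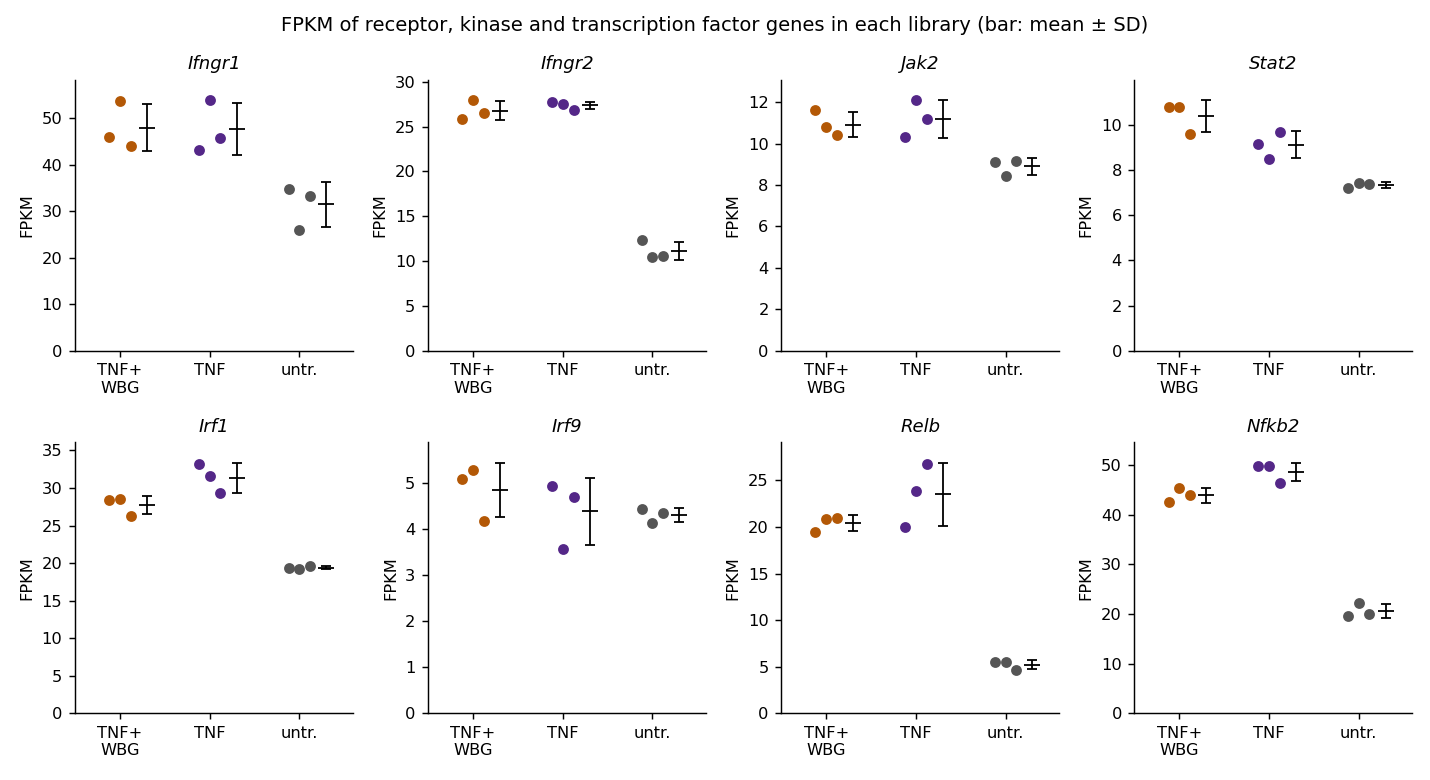
FPKM of 8 receptor, kinase and factor genes, 1 panel each, with TNF plus WBG, TNF and untreated libraries from left to right. Points are libraries (3 per group), the bar is the mean ± SD and each vertical axis starts at 0. Irf1 averages 27.7 FPKM in TNF plus WBG, 31.4 FPKM in TNF and 19.4 FPKM in untreated libraries, while Irf9 averages 4.86, 4.39 and 4.31 FPKM there.

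Other lists held genes that restrain the pathway or work with the members' proteins. None of 7 tested inhibitors of Janus kinase and STAT signalling was called in TNF against untreated. Socs3, a feedback inhibitor of receptor signalling, had 17.0, 17.7 and 16.7 FPKM in TNF, against 19.3, 20.7 and 19.8 FPKM in untreated libraries, with a log2 change of -0.21 (adjusted p = 0.117 by limma). It passed at 0.0303 without TNF plus WBG library 2 and at 0.0498 in a fit of the 6 libraries compared, among values from 0.0303 to 0.263 over 19 alternatives. Genes of ATG8 conjugation and vacuole ubiquitylation form the machinery that guides GBP and IRG proteins to vacuoles. Of the 13 listed, 2 rose and none fell, with a median log2 change of 0.02. The same fit called 6.43% of all genes tested higher, and a count of 2 does not set this list apart. Sqstm1, the ubiquitin adaptor p62, had 239, 233 and 242 FPKM in TNF, against 204, 202 and 203 FPKM in untreated libraries, a 1.17-fold rise (log2 0.23, adjusted p = 0.00141 by limma). Map1lc3a, an ATG8 protein, had 73.7, 75.6 and 76.7 FPKM in TNF, against 66.7, 67.0 and 63.1 FPKM in untreated libraries (log2 0.20, adjusted p = 0.00874 by limma). Sqstm1 shares exon positions with Mrnip. None of 5 enzymes of the prenylation pathway, through which some GBP proteins gain their lipid tail, was called. Among them Fnta had 28.1, 35.1 and 35.0 FPKM in TNF, against 41.5, 41.4 and 39.1 FPKM in untreated libraries, with a log2 change of -0.31 (adjusted p = 0.132 by limma).

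Of 9 inflammasome and pyroptosis genes 3 were tested and 2 rose in TNF against untreated, where 6.43% of all genes tested were called higher. The remaining tested gene, Il18, had a log2 change of -0.06 (adjusted p = 0.803 by limma). Casp1, Aim2, Nlrp3, Nlrc4, Pycard and Il1b stayed under the filter, with no value above 0.17 FPKM in any library. Casp4 (caspase-11 in mice), which senses bacterial lipopolysaccharide freed with the help of GBP proteins, had 21.4, 19.1 and 18.5 FPKM in TNF, against 5.63, 5.16 and 6.30 FPKM in untreated libraries. This was a 3.45-fold rise (log2 1.63, adjusted p = 7.92e-06 by limma). Gsdmd, the pore-forming protein that caspase-11 cleaves, had 7.22, 7.62 and 7.72 FPKM in TNF, against 4.94, 4.82 and 4.84 FPKM in untreated libraries, a 1.55-fold rise (log2 0.54, adjusted p = 0.00149 by limma). In both genes the groups were far apart, and TNF plus WBG stayed at the TNF level, with 19.5, 20.9 and 23.7 FPKM for Casp4 and 6.49, 7.45 and 7.90 FPKM for Gsdmd. No tested gene of the inhibitor, vacuole, prenylation or inflammasome list was called in TNF plus WBG against TNF. That fit called 0.0998% of all genes tested, so these lists are not set apart by it.

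The tested genes whose levels followed the members most closely were Jdp2 (Pearson's r = 0.992), a repressor of AP-1, Dtx3l (0.992), an interferon-induced ubiquitin ligase, Ctsb (0.989), the protease cathepsin B, Ddx58 (0.988), the RNA sensor RIG-I, and Col6a1 (0.987), a collagen chain. The measure was the correlation over 9 libraries with the mean standardised level of the 7 members tested, among 8684 genes with a mean of at least 5 FPKM. It is a description over libraries that share groups, and it carries no test. Ddx58 had 19.9, 18.5 and 19.8 FPKM in TNF plus WBG, 23.1, 23.5 and 21.9 FPKM in TNF and 11.6, 12.6 and 11.7 FPKM in untreated libraries. Dtx3l had 14.9, 14.0 and 14.4 FPKM in TNF plus WBG, 15.0, 15.9 and 15.8 FPKM in TNF and 9.22, 9.74 and 9.07 FPKM in untreated libraries. In both genes every TNF plus WBG library lay below every TNF library and above every untreated one. The members' mean standardised level had the same order, so picking genes by this correlation favoured it. Neither gene was called in TNF plus WBG against TNF (adjusted p = 0.353 for Ddx58 and 0.6 for Dtx3l by limma).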

How the data were processed

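RNA of 9 libraries, labelled RAW264.7, was measured by paired-end poly-A sequencing (Illumina NovaSeq), per the labels' protocols. The authors deposited FPKM, a length-scaled value relative to each library's total. Which aligner, counting program, annotation and build they used is not given in the sources used here. Depth was only inferred from steps in the values. GENCODE M21 gave symbols for 55144 of 56289 identifiers. Genes at 1 FPKM or more in at least 3 libraries (13026) were fitted as log2(FPKM + 1), which understates changes of low genes, by limma 3.58.1 under R 4.3.3, using its trend option and a group term for the 9 libraries together. P-values are two-sided, adjusted over all genes kept. Fold values are ratios of mean FPKM where both means reach 1, and no library was left out.

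The members and lists were chosen with earlier results of these data known. Named genes are all 10 members and, from each list, up to 2 called genes per direction in TNF against untreated (otherwise the largest change, or the highest level where none was tested), plus the 5 most correlated genes. Motifs were counted in RefSeq promoter windows (GRCm38.p6) on both strands. Protein features were not analysed here, and 1 listed gene is not reported here by name. Alternatives were other pseudocounts, filters, scalings and limma settings, a replicate block, and omission of each library. Tables were handled with pandas 2.3.3 and numpy 2.4.6 under Python 3.11.15, and plots with matplotlib 3.10.9.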

Additional observations from a re-analysis of the deposited data

How the results depend on the processing

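Calls of Gbp2, Gbp3 and Gbp7 in TNF against untreated and in TNF plus WBG against untreated were kept in every alternative where they could be tested. The member calls of TNF against untreated numbered 5. They came to 1 with a mean of at least 5 FPKM, since that filter removes all but Gbp2 and Irgm1, and to 3 to 6 over the 9 omissions of a library (3 without untreated library 1 or TNF library 3, where Gbp9 and Irgm2 were lost). In TNF plus WBG against untreated they numbered 5, 1 with that filter, 3 in a fit of the 6 libraries compared, and 3 to 5 over the omissions (3 without untreated library 1 or 3, or TNF plus WBG library 2 or 3). Over all genes, calls numbered 1386 in TNF against untreated (920 to 1299 over the omissions, lowest without TNF library 3), 1197 in TNF plus WBG against untreated (814 to 1113) and 13 in TNF plus WBG against TNF (8 to 14, and 7 in a fit of the 6 libraries compared). In TNF plus WBG against TNF no member was called in any alternative. The uncalled change of Gbp3 there, -0.01, ran from -0.14 to 0.05 over the omissions (0.05 without TNF library 2 or 3, 0.03 without TNF plus WBG library 3), and that of Ifi47 in TNF against untreated from -0.50 to 0.12 (0.12 without TNF library 1). The NF-kB consensus was in 1 member, and in 2 when bases after the start were included. For changes other than those with fewer genes or libraries in the fit, the cause was not tested.

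Deviations from group means correlated at -0.072 to 0.107 between same-numbered libraries, and at -0.096 to 0.095 between libraries of different groups and numbers. Whether same-numbered libraries have a common origin cannot be told from these values. With a replicate block the calls over all genes numbered 1159 in TNF against untreated, 8 in TNF plus WBG against TNF and 1046 in TNF plus WBG against untreated, and 4, 0 and 4 members were called, Irgm2 being the member lost, at an adjusted p of 0.0718 and 0.052 in limma. Among the other genes named in TNF against untreated, Ifngr1 (0.0512), Jak2 (0.0688), Il10rb (0.0734) and Stat2 (0.0702) lost their calls with the block. The depth limits what can be said of Gbp5, Iigp1 and Gbp6, which did not reach 1 FPKM in 3 libraries, and no counting interval is possible from FPKM.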
